A study of Mus musculus with 12 samples.

Results

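The 2-hour response of cHet macrophages to Pg was measured by comparing 3 RNA sequencing libraries of cells given Pg with 3 libraries of untreated cells of the same genotype, 6 of the 12 libraries of the series. The comparison covered the 13800 of 54532 genes that passed a filter on low counts. Both groups were bone marrow-derived macrophages, grown from the marrow of 8-week-old male mice with 50 ng/mL of M-CSF, the growth factor that turns marrow precursors into macrophages. Both groups shared the genotype labelled Itga9-Lyz2-cHet, written here as cHet. Itga9 encodes the alpha chain of the integrin alpha9beta1, and Lyz2-Cre drives recombination in myeloid cells. The labels do not spell out the alleles, and no mice without a conditional Itga9 allele were analysed here, so the response is that of this genotype alone. The treated cells had been exposed for 2 hours to an agent labelled Pg, with 1:20 given as the multiplicity of infection. The labels do not expand the abbreviation, which in the periodontitis field usually stands for the bacterium Porphyromonas gingivalis. The series' other 6 libraries, from mice labelled Itga9-Lyz2-cKO (cKO) with and without Pg, were used for a common estimate of the spread and for 1 comparison near the end. Nothing in the labels ties each library to its own mouse or culture. The p-values therefore rest on how far these libraries differ, and that spread may be technical.

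Macrophages recognise bacteria through pattern recognition receptors such as the Toll-like receptors, which activate the transcription factor NF-kB and the MAP kinases that act on AP-1. The first genes to be transcribed encode transcription factors, cytokines, chemokines and the inhibitors that later stop the response, such as A20, MAP kinase phosphatases and proteins that destroy cytokine messenger RNA. Activated macrophages also change their antioxidant defence, their glucose use and their adhesion to matrix. Interferon secreted by the cells normally drives a further wave of antiviral genes.

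The cells carried the RNA of macrophages, and RNA of other marrow cells was low but measurable. Together, 10 markers of macrophages summed to between 26300 and 29900 CPM (counts relative to the scaled library size) in the controls and between 28000 and 33700 CPM under Pg, and 3 of them rose. Markers of T and NK cells summed to at most 3.28 CPM in any cHet library. Neutrophil and granulocyte precursor markers, such as Ngp and S100a9, summed to 640 to 851 CPM in the controls and 668 to 1010 CPM under Pg, and 9 of these 10 genes did not pass. Markers of dendritic cells summed to 7.73 to 10.9 CPM in the controls and 13.1 to 16.0 CPM under Pg, and those of erythroid cells to 24.2 to 32.2 CPM and 12.8 to 22 CPM, and their part in the results was not tested. In bulk RNA, fewer cells of a type and less RNA per cell cannot be told apart. The libraries held 14730553 to 16793803 counts. Itga9 stood at 32.3, 17.9 and 18.9 CPM in the controls and 19.4, 34 and 33.4 CPM under Pg, and Lyz2, which encodes lysozyme, at 17630, 20790 and 19680 CPM and 22000, 18620 and 17900 CPM. Neither passed the test, with adjusted p-values of 0.51 and 0.95.

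The 6 libraries did not vary only by treatment. Control 1, Pg 2 and Pg 3 were alike in 1 direction and control 2, control 3 and Pg 1 in the other, and this split made up 50.2% of the spread of the libraries around their group means. Itgax, which encodes the integrin CD11c, had 115, 37 and 36.2 CPM in controls 1 to 3 and 59.3, 137 and 132 CPM in Pg 1 to 3. Mmp12, a macrophage elastase, had 822, 306 and 283 CPM and 546, 1206 and 1096 CPM. Cd36, a scavenger receptor for oxidised lipid, had 964, 358 and 336 CPM and 584, 1237 and 1194 CPM. In each of these genes, as in Itga9, control 1 lay above Pg 1, and the groups overlapped. None of these genes passed the test. With the split as a term in the model, which was added after the libraries were seen, Itgax, Mmp12 and Cd36 rose, by 0.43, 0.68 and 0.54 (adjusted p = 0.0005, 0.00016 and 0.0002), and Itga9 did not pass (0.07, adjusted p = 0.58). The split was computed from the expression of these same 6 libraries. Adjusted p-values with the term, here and below, can therefore be too small and serve as description only. Without control 1 and Pg 1, Itga9 had a log2 fold change of 0.86 (adjusted p = 0.042), but then all controls lie on 1 side of the split and all Pg libraries on the other, so that Pg and the split cannot be told apart. Of the 4980 calls described next, 4805 were kept in the same direction with the term, 175 were lost and none turned, and 886 genes were called only with the term. The share of counts that fell on ribosomal protein genes also followed the split, at 1.80% to 1.88% in control 1, Pg 2 and Pg 3 and 2.09% to 2.15% in the other libraries. Some markers of other marrow cells followed it too. The granulocyte gene Ngp had 226, 163 and 178 CPM in the controls and 189, 272 and 244 CPM under Pg, the platelet chemokine gene Ppbp 41.2, 24.8 and 27 CPM and 35.2, 67 and 67.3 CPM, and the basophil protease gene Prss34 12.5, 7.79 and 10.4 CPM and 4.91, 15.3 and 14.1 CPM. The megakaryocyte markers, with Gp1bb at 0, summed to 61.4 to 94.2 CPM in the controls and 80.3 to 143 CPM under Pg. Their part in the results was not tested.

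**Figure D1:**
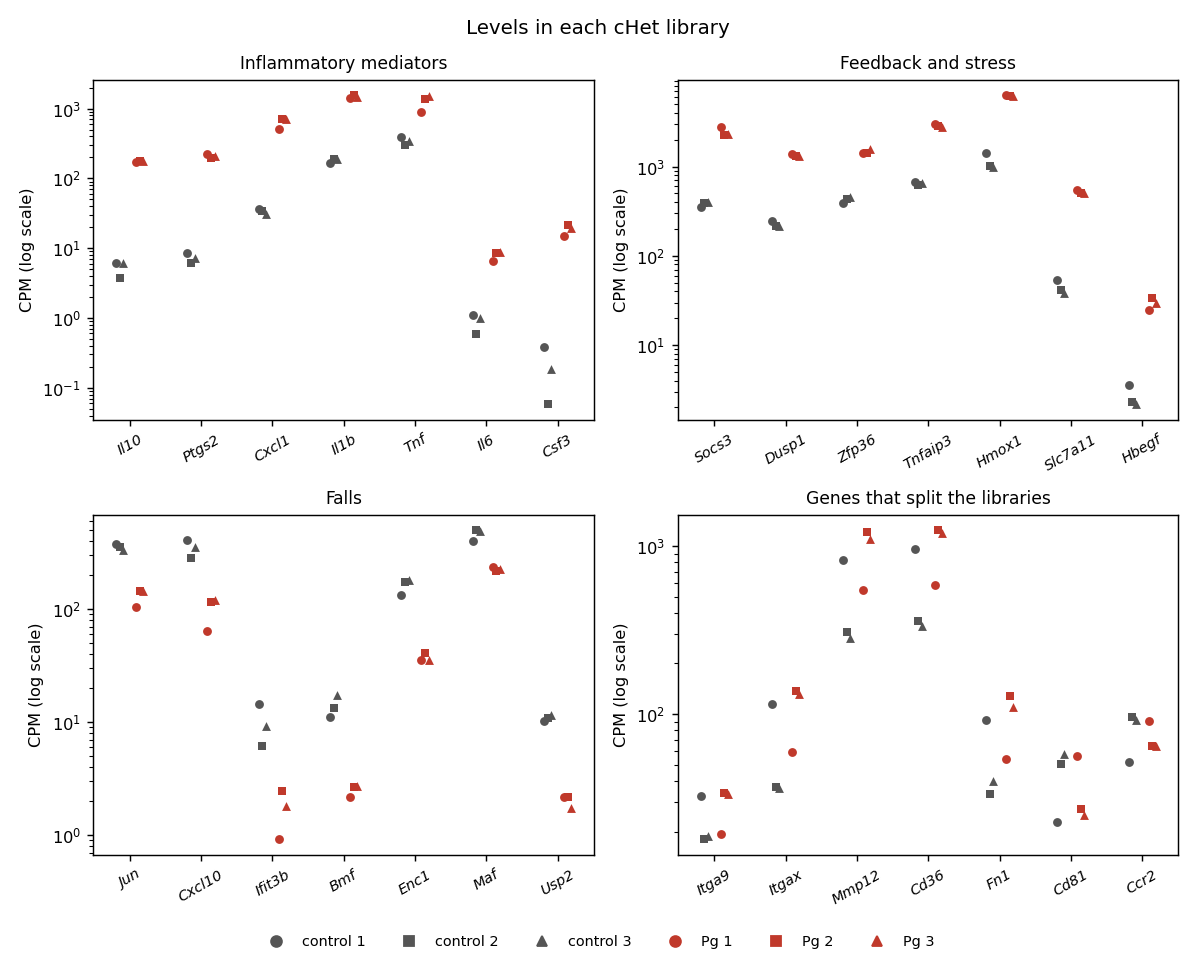
Levels in each of the 6 cHet libraries (vertical axis, CPM on a log scale), in grey for the controls and red for Pg, with the symbol giving the replicate number. In the first 3 panels the Pg libraries lie all above or all below the controls, while in the last panel control 1 lies with Pg 2 and Pg 3.

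Pg changed 4980 of the 13800 genes (36.1%) at an adjusted p under 0.05, 2490 upwards (18.0%) and 2490 downwards (18.0%). With the scaling used here more genes rose than fell at least 2-fold, 685 (4.96%) beside 424 (3.07%). The genes that rose at least 2-fold took 4.30% to 4.55% of all counts in the controls and 11.2% to 11.7% under Pg. The even split between rises and falls depended on the scaling. With library totals alone in place of TMM scaling, all log2 fold changes shifted by -0.24 at the median and only 19.1% of the calls were rises instead of 50.0%. On that scale 9.33% of all genes rose and 39.4% fell. At least 2-fold, 482 genes then rose and 918 fell, so the excess of 2-fold rises turned into an excess of falls. Changes are therefore given relative to the median gene, whose log2 fold change was -0.01. Rises were most frequent among highly expressed genes. Of protein-coding genes in the lowest of 5 equal classes by level, 7.65% rose, and of those in the highest class 43.9% rose, while falls were most frequent in the middle class (27.3%). The number of counts sets how small a change can be called, and its part in this gradient was not tested.

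**Figure D2:**
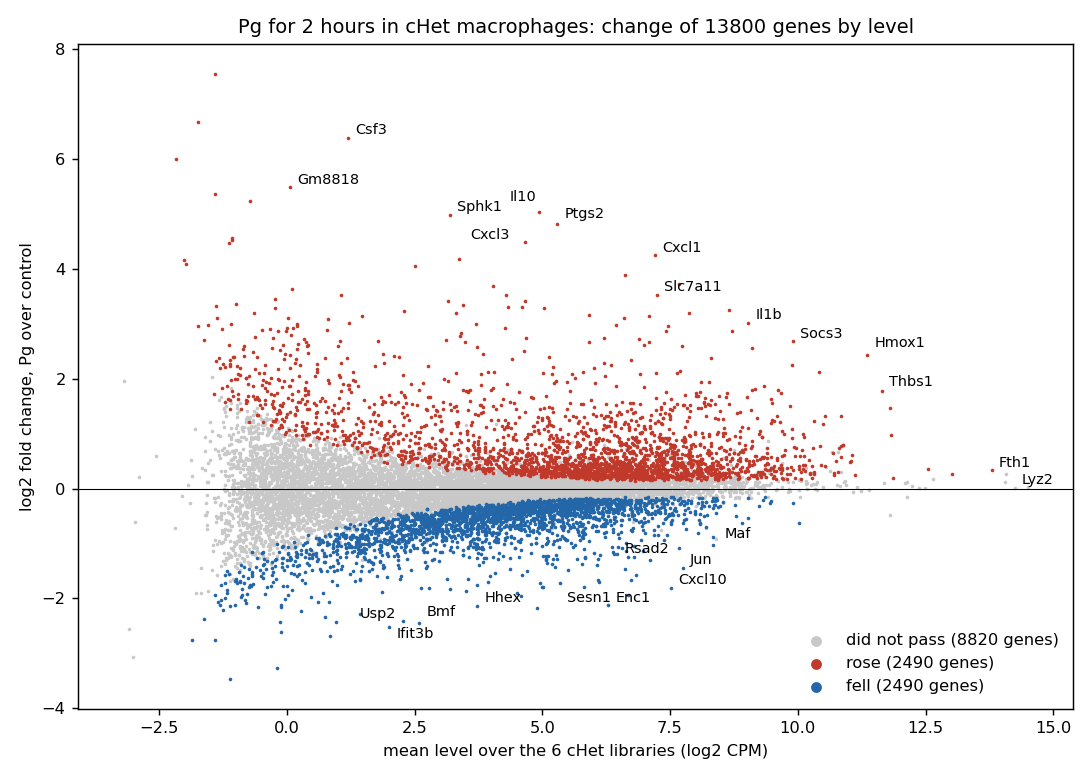
Each point is 1 of the 13800 tested genes, with its mean level over the 6 cHet libraries (horizontal axis, log2 CPM) and its log2 fold change of Pg over control (vertical axis). Red points rose and blue points fell, and the largest rises, such as Csf3, Il10 and Ptgs2, lie further from 0 than the largest falls.

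The largest rises are ranked here among genes whose mean log2 CPM over the 6 libraries was at least 1 and whose groups did not overlap. Rises below that level, such as that of Carlr (6.67), rest on few reads. Csf3, which encodes the neutrophil growth factor G-CSF, had 0.39, 0.0582 and 0.187 CPM in the controls and 14.8, 21.5 and 19.8 CPM under Pg, a log2 fold change of 6.39 ± 0.30 (SE). Il10 (ENSMUSG00000016529, chr1:131019845-131024974 in mm10), the anti-inflammatory cytokine, had 6.18, 3.73 and 6.04 CPM and 174, 175 and 177 CPM, with a log2 fold change of 5.04 ± 0.13 (adjusted p = 1.7e-13). The 3 Pg libraries of Il10 lay close together and far above all controls. Sphk1, the kinase that makes sphingosine 1-phosphate, rose from 2.17, 1.51 and 1.12 CPM to 57.2, 42.5 and 54.4 CPM, by 4.98 ± 0.28. Ptgs2, the inducible cyclooxygenase of prostaglandin synthesis, rose from 8.52, 6.17 and 7.35 CPM to 222, 196 and 208 CPM, by 4.83 ± 0.14. In both, every Pg library exceeded every control, as the ranking required. Others among the 20 largest rises above that level were Fosb (4.19), Serpinb2 (4.05), Slc7a11 (3.53), Rnd1 (3.42), the adhesion molecule gene Flrt3 (3.35), Phlda1 (3.30), the interferon-induced transmembrane family member Ifitm7 (3.52) and Hilpda (3.29), all as log2 fold changes.

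By share of the RNA, the response looked different, because it then favoured genes that were already abundant. The largest gain in CPM was in Hmox1, heme oxygenase 1, from 1416, 1007 and 994 CPM to 6301, 6103 and 6120 CPM. Thbs1, the matrix protein thrombospondin 1, followed, from 1632, 1785 and 1804 CPM to 7099, 5585 and 5224 CPM, and Sqstm1, the autophagy receptor p62, rose from 2095, 2254 and 2106 CPM to 6105, 5824 and 5981 CPM. In all 3 genes the groups were far apart, but only genes without overlap between the groups entered this ranking. Fth1, Tnfaip2, Tnfaip3, Socs3, the platelet and leukocyte protein gene Plek, Txnrd1 and Gpnmb completed the 10 largest gains. Of these, Fth1 and Gpnmb had log2 fold changes of only 0.34 and 0.26 and did not pass with library totals alone (adjusted p = 0.16 and 0.87), and Gpnmb passed or not with the library left out, with adjusted p-values of 0.11 without control 2 or control 3, 0.089 without Pg 2 and 0.068 without Pg 3.

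The largest falls, ranked in the same way, were smaller in size than the largest rises. Ifit3b, an interferon-induced gene, had 14.4, 6.17 and 9.21 CPM in the controls and 0.913, 2.46 and 1.81 CPM under Pg, a log2 fold change of -2.52 ± 0.43. Bmf, which encodes a protein that promotes apoptosis, fell from 11, 13.2 and 17.6 CPM to 2.18, 2.67 and 2.75 CPM, by 2.45 ± 0.23 on the log2 scale. Enc1, an actin-binding protein gene, fell from 135, 173 and 183 CPM to 35.8, 40.8 and 35.9 CPM, by 2.12 ± 0.16. In each, the highest Pg library stayed below the lowest control, which the ranking required. The other large falls included Usp2 (-2.42), Atp23 (-2.28), the homeobox gene Hhex (-2.13), the kinase gene Nuak1 (-1.95), the stress-induced Sesn1 (-1.93), Arrdc3 (-1.91), the Polycomb protein gene Cbx2 (-1.88), the lysophosphatidic acid receptor gene Lpar6 (-1.86), Fam214a (-1.80), H2-K2 (-1.79) and the G protein gene Gna15 (-1.76). By share of the RNA the largest losses were in the amino acid transporter gene Slc43a2 (1293 ± 89.5 CPM to 835 ± 17.7 CPM, mean ± SD of 3 libraries), Cxcl10, the transcription factor genes Maf and Jun, Tecpr1 and the RNA-editing enzyme gene Apobec1.

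The fall of Gapdh was less firm. It had 88.4, 66.5 and 41.7 CPM in the controls and 12.1, 19.7 and 11.7 CPM under Pg, and its fall (log2 fold change -2.18 ± 0.65) did not pass when control 1, control 2 or any 1 Pg library was left out, with adjusted p-values of 0.053 to 0.093. The mouse genome holds many near-identical Gapdh copies, and how reads that fit several copies were counted is not given in the sources used here, so the value of this gene is uncertain. The F-box protein gene Fbxo32 fell by 1.83 ± 0.45. Without control 1 and Pg 1 together it did not pass (adjusted p = 0.077), and with the split between libraries as a term it fell by 2.09 (adjusted p = 1.3e-11).

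Most immediate early transcription factor genes rose, but Fos and Jun, the best known of them, fell. Of 12 AP-1 subunit genes, 8 rose and 2 fell, with a median log2 fold change of 0.68 (0.43 with library totals alone). Fosb rose from 1.89, 2.1 and 3.42 CPM to 61.3, 37.4 and 35.6 CPM. Fosl1 rose by 3.23 ± 0.17, Fosl2 by 2.11 ± 0.10, Jdp2 by 2.08 ± 0.08, and Junb by 0.76 ± 0.06. Fos, in contrast, had 121, 103 and 102 CPM in the controls and 29.7, 57.2 and 55 CPM under Pg, and Jun had 375, 354 and 337 CPM and 104, 146 and 144 CPM. Both fell, by 1.20 ± 0.28 and 1.44 ± 0.15, with no overlap between the groups, and Jun was also among the 10 largest losses by share of the RNA. Of 13 EGR, NR4A and IER genes, 10 rose and 1 fell, with a median of 1.04. The fall was in Btg2, an inhibitor of cell division (-0.41 ± 0.14), and did not pass without any 1 control or without Pg 1 (adjusted p = 0.051 to 0.13). The nuclear receptor gene Nr4a3 rose from 4.79, 3.61 and 5.42 CPM to 76.3, 47.9 and 53.6 CPM, and Myc, the growth regulator, from 23.1, 22.1 and 23 CPM to 97, 82.5 and 83.9 CPM. Egr1 did not pass (adjusted p = 0.36), at 60.2, 42.5 and 48.9 CPM in the controls and 40, 81 and 78.7 CPM under Pg, so that Pg 1 lay below every control. Among 10 KLF genes 4 rose, including Klf6 (1.05) and Klf4 (1.02), and Klf11 fell by 1.65 ± 0.20. Under library totals alone 3 KLF genes rose and 4 fell, with a median of -0.06 in place of 0.19. On that scale 6 of the AP-1 subunit genes rose and 2 fell. Of the EGR, NR4A and IER genes 6 then rose and 1 fell.

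Many inhibitors of signalling rose as well. Of 12 dual-specificity phosphatases, which remove phosphate from MAP kinases, 8 rose and 1 fell, with a median of 0.75. Dusp1 rose from 245, 217 and 217 CPM to 1385, 1323 and 1320 CPM, by 2.57 ± 0.09, and Dusp2 from 52.8, 45.3 and 40.1 CPM to 429.6, 373 and 426 CPM, by 3.15 ± 0.17. Dusp6, whose product acts on ERK, was the member that fell, from 29.5, 27 and 25.8 CPM to 7.24, 9.15 and 9.04 CPM. In all 3 genes the groups were separate. Zfp36, which encodes the cytokine messenger RNA destroying protein TTP, rose from 387, 433 and 453 CPM to 1418, 1421 and 1562 CPM, and Zc3h12a, the ribonuclease Regnase-1, by 1.47 ± 0.07. Their relative Zfp36l2 fell by 0.65 ± 0.07, and in all 5 of 10 mRNA decay factors rose. Socs3, an inhibitor of cytokine receptor signalling, rose from 349.8, 391 and 399 CPM to 2794, 2248 and 2292 CPM. Among 18 SOCS, Sprouty, Tribbles and RGS genes 9 rose, Spred2 by 1.33 ± 0.08, and 3 fell, Socs6 by 1.29 ± 0.08, Rgs2 by 1.71 ± 0.13 and Rgs14 by 0.84 ± 0.16.

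The NF-kB pathway was the list with the highest share of rises among those of more than 20 genes. Of 23 subunits, inhibitors and kinases, 19 rose (82.6%, beside 18.0% of all genes), none fell, and the median was 0.65. With library totals alone 16 rose and 3 fell. Tnfaip3, which encodes the inhibitor A20, rose from 675, 618 and 661 CPM to 2984, 2832 and 2745 CPM, by 2.13 ± 0.07. Nfkbia, the inhibitor IkB-alpha, rose from 536, 548 and 547 CPM to 1616, 1479 and 1551 CPM, by 1.51 ± 0.06, and the signalling adaptor Traf1 from 51, 52.5 and 50.7 CPM to 154, 148 and 140.3 CPM. All Pg libraries lay above all controls in these 3 genes. Of the subunit genes, Nfkb1 rose by 1.12 ± 0.09 and Rela by 0.21 ± 0.05, where Rela was at -0.04 and did not pass with library totals alone, and Relb did not pass (-0.06 ± 0.08, adjusted p = 0.58). The inhibitor gene Nfkbib rose by 1.13 ± 0.06. The kinase gene Ikbkb (0.08 ± 0.06) and the deubiquitinase gene Cyld (0.00 ± 0.07) did not pass, and both were lower with library totals alone, at -0.16 and -0.24.

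Among the receptors that start this pathway and their adaptors, the share of falls was near that of all genes. Of 25 Toll-like receptors and adaptors 9 rose (36.0%) and 4 fell (16.0%), beside 18.0% of all genes in each direction. The median was 0.11. Scaled by library totals alone, 4 rose and 12 fell, with a median of -0.14. Ticam1, the adaptor TRIF, rose by 1.23 ± 0.09, and Tollip, an inhibitory adaptor, by 0.77 ± 0.06. The receptor gene Tlr6 fell by 0.49 ± 0.10 and the kinase gene Irak4 by 0.30 ± 0.08. Tlr4 did not pass (-0.18 ± 0.08, adjusted p = 0.11), nor did the common adaptor gene Myd88 (-0.04 ± 0.07).

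Among cytokine genes that passed the test, rises far outnumbered falls. Of 13 interleukin 1 family and receptor genes 7 rose, each at least 2-fold, and none fell. Il1b rose from 167, 192 and 192 CPM to 1421, 1554 and 1479 CPM, by 3.02 ± 0.09, and Il1a from 33.1, 19.2 and 26.1 CPM to 268, 439.5 and 463 CPM, by 3.90 ± 0.31. Il1rn, which encodes the natural antagonist of both, rose from 76.8, 46.8 and 47.4 CPM to 797, 733 and 739 CPM, by 3.73 ± 0.27. The receptor genes rose too, the decoy receptor Il1r2 by 1.53 ± 0.21 and the signalling receptor Il1r1 by 2.38 ± 0.34. Il18 did not pass (0.27 ± 0.17). Of 16 genes of the interleukin 6, 10 and 12 families and their receptors 10 rose and 2 fell. Il6 stayed low, at 1.11, 0.582 and 0.996 CPM in the controls and 6.46, 8.59 and 8.84 CPM under Pg, although its log2 fold change was 3.14 ± 0.29. Clcf1, a cytokine of the same family, rose from 10.2, 4.66 and 4.73 CPM to 53.8, 67.7 and 75.3 CPM. Il12b did not pass (-0.50 ± 0.51, adjusted p = 0.5), with 18.8, 15 and 15.9 CPM in the controls and 5.62, 12.7 and 16.8 CPM under Pg, and with the split as a term it fell by 0.78 (adjusted p = 0.041). The falls were in the receptor genes Il10ra, by 0.69 ± 0.06, and Il6ra, by 0.47 ± 0.08.

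Tumour necrosis factor and its relatives followed. Tnf rose from 391, 300.5 and 345 CPM to 902, 1365 and 1519 CPM, by 1.87 ± 0.25, with the lowest Pg value in Pg 1. Tnfsf9, the ligand 4-1BBL, rose from 59.5, 59.4 and 72.4 CPM to 482, 456 and 454 CPM, by 2.86 ± 0.09, and Tnfsf14, the ligand LIGHT, from 4.67, 6.87 and 5.98 CPM to 95.9, 51.1 and 55.2 CPM, by 3.53 ± 0.38. In these 3 genes the groups did not overlap, but in Tnfsf14 Pg 1 lay well above the other Pg libraries. Of the 21 tested genes of the superfamily 12 rose. The 2 that fell were Tnfsf10, the death ligand TRAIL (-1.50 ± 0.26), and Tnfrsf14, the receptor of LIGHT (-0.81 ± 0.10).

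The CXC chemokine genes that passed moved in both directions. Of 12 CXC chemokine genes the 4 that rose were Cxcl1, Cxcl2, Cxcl3 and Cxcl5, which attract neutrophils, and the 2 that fell were Cxcl9 and Cxcl10, which attract activated T cells and are known interferon targets. Cxcl1 rose from 36.5, 34.3 and 31.1 CPM to 512, 708 and 719 CPM, by 4.25 ± 0.15. Cxcl2 rose from 133, 125 and 139 CPM to 981, 1272 and 1534 CPM, by 3.25 ± 0.14, and Cxcl3 from 4.9, 6.29 and 4.67 CPM to 117, 115 and 123 CPM, by 4.48 ± 0.11 (adjusted p = 5.3e-14). The lowest Pg library exceeded the highest control in each. Cxcl10 went from 409.9, 284 and 354 CPM to 64.5, 115 and 120 CPM, a fall of 1.80 ± 0.30 on the log2 scale with no overlap. Of 12 CC chemokine genes 8 rose and none fell, with a median of 1.45, and with library totals alone 8 rose and 1 fell. Ccl2 and Ccl7, which attract monocytes, rose by 2.14 ± 0.16 and 2.35 ± 0.20, Ccl3 and Ccl4 by 1.74 ± 0.16 and 1.32 ± 0.19, and Ccl9 by 1.74 ± 0.09.

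The receptors for chemoattractants changed as well, 9 of 17 upwards and 4 downwards. Ccr1 rose from 48.3, 30.6 and 33.9 CPM to 159, 193 and 185 CPM, by 2.25 ± 0.18, and Ccr3 by 1.78 ± 0.20. Fpr1, a receptor for formylated bacterial peptides, rose from 13.9, 13.9 and 14.8 CPM to 26.4, 25.6 and 23 CPM, and C5ar1, the receptor of complement fragment C5a, by 0.70 ± 0.06. Cxcr4, the receptor that holds cells in the marrow, fell from 170.1, 141 and 164 CPM to 57.8, 68.7 and 74.8 CPM, and Cx3cr1, the fractalkine receptor of monocytes and resident macrophages, fell by 0.98 ± 0.19.

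The neutrophil chemokine genes lie side by side on chromosome 5, and their promoters are shown because they moved together. Each window runs from 250 bases before to 50 bases after the annotated start, from RefSeq on GRCm38.p6, the assembly of the mm10 coordinates, and is written 5′ to 3′ on the gene's own strand. The capitals mark matches to the NF-kB motif (GGG, any 2 bases, then TTTCC) on either strand. The windows are chr5:90785851-90786150, chr5:90890995-90891294 and chr5:90903649-90903948, all on the plus strand. Cxcl3 has 1 match, Cxcl1 has 2 and Cxcl2 has 2, and GGGAATTTCC occurs in all 3 windows.

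Cxcl3: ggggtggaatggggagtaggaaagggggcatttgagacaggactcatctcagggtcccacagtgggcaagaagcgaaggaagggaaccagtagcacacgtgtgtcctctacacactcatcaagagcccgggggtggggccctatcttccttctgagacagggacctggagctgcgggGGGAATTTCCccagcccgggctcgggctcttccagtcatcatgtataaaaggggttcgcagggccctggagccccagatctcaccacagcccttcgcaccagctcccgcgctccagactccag

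Cxcl1: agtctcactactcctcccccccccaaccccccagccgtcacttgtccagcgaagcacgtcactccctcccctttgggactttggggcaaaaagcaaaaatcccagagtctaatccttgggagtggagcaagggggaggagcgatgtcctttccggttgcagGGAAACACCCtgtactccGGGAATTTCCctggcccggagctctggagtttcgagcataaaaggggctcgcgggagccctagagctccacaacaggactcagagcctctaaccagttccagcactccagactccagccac

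Cxcl2: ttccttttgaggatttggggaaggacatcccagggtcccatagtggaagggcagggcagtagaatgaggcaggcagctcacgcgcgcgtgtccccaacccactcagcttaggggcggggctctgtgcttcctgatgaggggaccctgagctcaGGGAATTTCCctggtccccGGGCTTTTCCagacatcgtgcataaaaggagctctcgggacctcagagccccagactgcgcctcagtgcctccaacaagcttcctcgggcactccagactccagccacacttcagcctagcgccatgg

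Motif letters were counted in the promoter windows of all genes that the RefSeq table held, 440 of the 685 that rose at least 2-fold, 299 of the 424 that fell at least 2-fold and 9848 of the 13800 tested. A gene counted where any of its windows matched on either strand, and the groups had 1.28, 1.23 and 1.27 windows per gene. The AP-1 motif TGANTCA stood in 17.7% of the genes that rose at least 2-fold, in 6.02% of those that fell and in 6.57% of all tested genes. The NF-kB motif stood in 5.45%, 2.34% and 2.04%. The interferon-stimulated response element (GAAA on both sides of any 2 bases) stood in 4.32% of the rises, 6.02% of the falls and 4.01% of all genes. The cyclic AMP response element TGACGTCA stood in 3.41%, 3.34% and 3.57%, and the E-box CACGTG in 12.3%, 10.0% and 11.7%. The antioxidant response element TGACNNNGC had 19.3%, 17.4% and 17.2%, and the CArG box 1.14%, 1.0% and 1.5%. Of all 32851 windows in the table, 7.81% hold the AP-1 letters and 1.63% the NF-kB letters. An AP-1 match that is followed by GC can also match the antioxidant motif, so those shares can count the same letters. These shares describe letters, not binding, and were not tested.

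**Figure D3:**
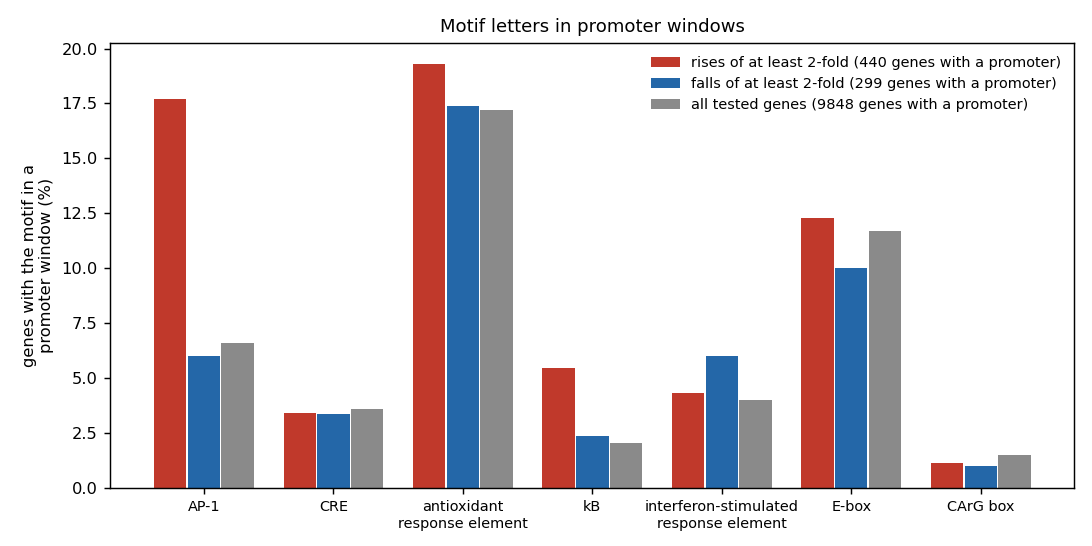
Share of genes with motif letters in a promoter window (vertical axis, percent), for the genes that rose at least 2-fold (red), fell at least 2-fold (blue) and all tested genes (grey). The AP-1 bar of the rises, at 17.7%, stands above the 6.57% of all genes, while the E-box bars lie between 10.0% and 12.3%.

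The windows of 2 of the largest rises are shown for the AP-1 letters, in capitals. The Sphk1 window is chr11:116531587-116531886 and the Serpinb2 window chr1:107511173-107511472, both on the plus strand. They are 1 of 5 and 1 of 2 windows that the table lists for these genes.

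Sphk1: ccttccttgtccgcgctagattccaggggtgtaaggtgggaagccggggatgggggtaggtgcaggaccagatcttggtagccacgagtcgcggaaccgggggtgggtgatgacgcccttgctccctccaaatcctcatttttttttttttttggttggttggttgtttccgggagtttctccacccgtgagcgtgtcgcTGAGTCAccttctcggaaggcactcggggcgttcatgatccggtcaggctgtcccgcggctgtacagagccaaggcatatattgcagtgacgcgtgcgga

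Serpinb2: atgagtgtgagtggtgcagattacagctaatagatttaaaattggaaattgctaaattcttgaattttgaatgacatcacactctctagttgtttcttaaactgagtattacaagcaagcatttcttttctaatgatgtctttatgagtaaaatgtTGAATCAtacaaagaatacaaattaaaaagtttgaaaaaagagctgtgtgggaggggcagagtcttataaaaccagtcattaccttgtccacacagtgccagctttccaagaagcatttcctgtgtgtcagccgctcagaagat

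Many genes known as targets of type I interferon fell. Of 30 genes in this list, with Ifnb1 itself included, 14 fell (46.7%, beside 18.0% of all genes), 1 rose and 15 did not pass, with a median of -0.42 (-0.66 with library totals alone). The 1 that rose was Ifnb1, interferon beta, from 0.111, 0.175 and 0.187 CPM to 0.211, 1.06 and 1 CPM. This is a level of few reads, Pg 1 lay close to the controls, and the rise did not pass without control 1, Pg 2 or Pg 3 (adjusted p = 0.053, 0.074 and 0.07). Ifit3 had 88.8, 44.9 and 52.2 CPM in the controls and 10.9, 22.9 and 20 CPM under Pg, Cmpk2 fell by 1.69 ± 0.32 and Usp18 by 1.24 ± 0.27. In these genes the control with the highest level was control 1 and the Pg library with the lowest level was Pg 1. Without control 1 and Pg 1 together the log2 fold change of Ifit3 was -1.19 in place of -1.79 and did not pass (adjusted p = 0.061), and with the split as a term it was -2.09 (adjusted p = 2.4e-16). The fall of Rsad2, -1.08 ± 0.36, did not pass without any 1 of the 6 libraries (adjusted p = 0.056 to 0.15). Isg15 (-0.29 ± 0.18) did not pass. With the split between libraries as a term 25 of the 30 fell, Rsad2 by 1.36 (adjusted p = 8.1e-16) and Isg15 by 0.44 (adjusted p = 0.0011). Because the split was computed from the same libraries, these p-values can be too small and do not make the falls firmer.

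Interferon-inducible GTPases of the GBP and IRG families went the same way, with 6 of 14 falling and 1 rising. Irgm2 fell by 0.91 ± 0.14 and Tgtp2 by 1.49 ± 0.25, and Gbp2 did not pass (-0.03 ± 0.08). The rise was in Gbp5, by 0.27 ± 0.09, and did not pass without control 2, Pg 1 or Pg 3 (adjusted p = 0.11, 0.057 and 0.079). Among 8 interferon regulatory factors 3 rose and 2 fell, and with library totals alone 2 rose and 3 fell. Irf4 rose from 5.12, 3.5 and 5.6 CPM to 18.3, 20.6 and 22.7 CPM and Irf1 by 0.33 ± 0.09, and Irf8 and Irf9 fell by 0.41 ± 0.07 and 0.40 ± 0.10. The windows of Ifit3 (chr19:34583279-34583578, plus strand) and Cxcl10 (chr5:92348840-92349139, minus strand) are shown as genes that fell, with the interferon-stimulated response element letters in capitals.

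Ifit3: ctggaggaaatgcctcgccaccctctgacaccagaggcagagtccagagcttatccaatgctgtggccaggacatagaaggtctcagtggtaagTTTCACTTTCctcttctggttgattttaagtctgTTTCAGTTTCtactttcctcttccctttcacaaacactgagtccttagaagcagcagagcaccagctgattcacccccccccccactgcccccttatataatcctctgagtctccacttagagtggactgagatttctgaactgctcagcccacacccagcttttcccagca

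Cxcl10: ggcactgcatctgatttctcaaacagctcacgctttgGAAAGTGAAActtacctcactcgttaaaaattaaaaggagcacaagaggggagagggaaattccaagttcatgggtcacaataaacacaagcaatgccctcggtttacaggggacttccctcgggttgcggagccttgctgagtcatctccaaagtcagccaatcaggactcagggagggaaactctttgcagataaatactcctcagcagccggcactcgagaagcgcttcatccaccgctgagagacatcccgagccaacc

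Of 17 growth factor genes and their receptors 10 rose and none fell, and with library totals alone 8 rose and 3 fell. Hbegf, a ligand of the EGF receptor, rose from 3.56, 2.33 and 2.18 CPM to 24.4, 33.4 and 29.3 CPM, by 3.42 ± 0.27. Csf1, which encodes M-CSF, rose by 1.10 ± 0.11, and Inhba, a subunit of activin, by 1.76 ± 0.26. Gdf15 rose from 176, 134 and 129.7 CPM to 295, 636 and 754 CPM. The M-CSF receptor gene Csf1r did not pass, at 4240, 4901 and 5179 CPM and 4792, 4102 and 3960 CPM.

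Of 19 prostaglandin, leukotriene and sphingosine phosphate genes 6 rose, 3 fell and 10 did not pass, with a median of -0.02, and with library totals alone 6 rose and 8 fell. Besides Ptgs2 and Sphk1, the prostaglandin E synthase gene Ptges rose from 6.01, 5.53 and 5.85 CPM to 23.8, 17.3 and 19.2 CPM, while the constitutive cyclooxygenase gene Ptgs1 (-0.06 ± 0.08) and the leukotriene enzyme gene Alox5 (-0.01 ± 0.21) did not pass. Ptger4, a prostaglandin E2 receptor, fell by 0.61 ± 0.10. Of 13 arginine, polyamine and itaconate genes 8 rose and none fell, and with library totals alone 7 rose and 2 fell. Odc1, the first enzyme of polyamine synthesis, rose from 162, 159 and 147 CPM to 735, 537 and 538 CPM, the mitochondrial arginase gene Arg2 by 1.25 ± 0.14, and Slc7a2, an arginine transporter, by 1.76 ± 0.22. Nos2, the inducible nitric oxide synthase, stayed low, from 3.51, 3.2 and 3.11 CPM to 13.1, 5.07 and 10.4 CPM. Acod1, which makes itaconate, rose by 0.43 ± 0.07 from a level of 1213 ± 63.6 CPM.

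Of the cell death genes, members that block and members that promote apoptosis both rose. Of 18 genes of the BCL2 family and apoptosis inhibitors 8 rose and 2 fell. Cflar, which blocks caspase 8, rose from 535, 532 and 512 CPM to 1301, 1190 and 1193 CPM, Bcl2a1d by 1.78 ± 0.21 and Mcl1 by 0.29 ± 0.07. The falls were in Bmf and in Bbc3, which encodes PUMA and fell by 1.59 ± 0.15. Bcl2l11, which encodes the death-promoting BIM, was among the rises, by 0.94 ± 0.08. The 3 Bcl2a1 genes are near-identical, so reads may be shared between them. Of 14 inflammasome and gasdermin genes 5 rose and 3 fell, and with library totals alone 3 rose and 8 fell. Nlrp3, the inflammasome sensor, rose from 766, 907 and 896 CPM to 1311, 1434 and 1415 CPM, Mefv by 1.53 ± 0.26 and Casp4 by 0.91 ± 0.10, while Gsdmd, which encodes the pore-forming gasdermin D, did not pass (-0.06 ± 0.07).

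Many genes of matrix breakdown and adhesion rose. Of 20 matrix proteases and genes of the plasminogen system 10 rose, none fell and the median was 0.96, and with library totals alone 10 rose and 4 fell. Serpinb2, an inhibitor of plasminogen activators, rose from 1.22, 1.05 and 1.87 CPM to 27.6, 21.8 and 19 CPM, and the collagenase gene Mmp13 from 27.9, 22.8 and 21.4 CPM to 133, 151 and 173 CPM. Plaur, the urokinase receptor, rose by 2.10 ± 0.13. Mmp14 (0.56 ± 0.31) did not pass, with 445, 253 and 254 CPM in the controls and 335, 515 and 549.6 CPM under Pg. This pattern follows the split between libraries, and with the split as a term Mmp14 rose by 0.33 (adjusted p = 2.7e-05). Of 19 integrin genes 7 rose and 4 fell, and with library totals alone 4 rose and 4 fell. Itgav rose from 220.2, 177 and 186 CPM to 573, 548 and 579.7 CPM and Itga5 from 646, 579.9 and 577 CPM to 1192, 1206 and 1208 CPM. Both encode receptors for matrix proteins such as fibronectin. Itgb1, which encodes the partner of both and of alpha9, rose by 0.44 ± 0.06, and Itgal and Itga4, of leukocyte integrins, fell by 0.63 ± 0.07 and 0.41 ± 0.11. Of 13 genes for ligands of alpha9beta1 and related proteins 9 rose and none fell, including Thbs1, Vcam1 (1.11 ± 0.12) and Spp1, osteopontin (0.74 ± 0.15). Under library totals alone 5 of these rose and 2 fell.

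Among 13 osteoclast genes 7 rose and 3 fell, and they did not move in 1 direction. Ocstamp, which acts in cell fusion, had 0.835, 0.408 and 0.249 CPM in the controls and 2.11, 1.55 and 1.94 CPM under Pg, and Car2, carbonic anhydrase 2, 1.5, 0.699 and 1.12 CPM and 2.74, 2.39 and 2.54 CPM, where the rise of Car2 did not pass without control 2 (adjusted p = 0.053). Ppargc1b, a coactivator of mitochondrial genes, fell from 4.56, 3.73 and 4.54 CPM to 0.562, 0.845 and 0.938 CPM. Ctsk, the bone collagen protease, did not pass (0.52 ± 0.38). Of 27 macrophage transcription factor genes 18 rose, among them Cebpb (1.05 ± 0.08) and Runx1 (0.87 ± 0.07), and 4 fell. The largest falls were Hhex, from 25.8, 28.8 and 28.2 CPM to 5.06, 7.11 and 6.7 CPM, and Maf, from 403, 499 and 498 CPM to 237, 220.3 and 228 CPM.

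Most surface molecules for contact with lymphocytes rose. Of 14 costimulatory, checkpoint and adhesion ligand genes 9 rose and 1 fell (Icosl, -0.36 ± 0.07), and with library totals alone 7 rose and 1 fell. Cd86 rose from 64.6, 49.7 and 60.3 CPM to 154, 151 and 144 CPM, Cd44, a receptor for hyaluronan, by 1.57 ± 0.07, Pvr by 2.09 ± 0.09, and Cd274, which encodes the checkpoint ligand PD-L1, from 245, 139.6 and 160.1 CPM to 488, 545 and 549 CPM. Of 10 MHC class II genes 2 rose (20.0%) and 1 fell (10.0%), beside 18.0% of all genes in each direction, and 7 did not pass. With library totals alone none rose and 1 fell, and with the split as a term 5 rose and 1 fell. Ciita, the master regulator of class II genes, fell by 0.49 ± 0.13 (adjusted p = 0.054 without control 1 and Pg 1, and 0.0026 with the split as a term). Of 24 lectin, scavenger and Fc receptors 8 rose and none fell. The lectin gene Clec4e, whose product Mincle binds microbial glycolipid, rose from 427, 475 and 526 CPM to 1252, 1012 and 989 CPM, and Olr1, a receptor for oxidised lipoprotein, from 34.6, 14.4 and 14.9 CPM to 140.3, 219.7 and 212 CPM. With library totals alone 5 of these receptor genes rose and 6 fell, and the median was -0.03 in place of 0.22. Of 11 complement genes 2 rose and 9 did not pass, and with library totals alone none rose and 3 fell.

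Most of the tested genes of the antioxidant programme of the transcription factor NRF2 rose. Of 25 NRF2, glutathione and iron genes 16 rose (64.0%), 3 fell and 10 rose at least 2-fold. This majority depended on the scaling, and with library totals alone 12 rose and 5 fell. Slc7a11, the cystine transporter that feeds glutathione synthesis, rose from 54.3, 41.3 and 38.4 CPM to 545, 502 and 500.3 CPM, Srxn1, sulfiredoxin, from 178, 146 and 147 CPM to 1203, 1117 and 1105 CPM, and Txnrd1, thioredoxin reductase, from 472, 419.8 and 404 CPM to 2141, 2036 and 2025 CPM. In these 3 genes no Pg library came near a control. Gclm, a subunit of the enzyme that starts glutathione synthesis, rose by 1.38 ± 0.08. Tfrc, the transferrin receptor, fell by 0.84 ± 0.08 and Keap1, the inhibitor of NRF2, by 0.36 ± 0.09.

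Glucose uptake and hypoxia genes rose in part. Slc2a1, the glucose transporter GLUT1, rose from 75.4, 64.2 and 63.9 CPM to 182, 170.5 and 177 CPM, Pfkfb3, which makes an activator of glycolysis, from 228, 199 and 221 CPM to 763, 638 and 664 CPM, and Hif1a from 209, 227 and 216 CPM to 458, 404 and 430.3 CPM. Of the 25 genes of this list 11 rose and 3 fell, the falls including Gapdh and the phosphofructokinase gene Pfkl (-0.59 ± 0.07). The median of the list was 0.18, and -0.06 with library totals alone. Of 20 lipid handling genes 5 rose, among them Hilpda, a lipid droplet protein gene, from 13.7, 7.98 and 9.77 CPM to 104, 109.8 and 95.2 CPM, and the cholesterol exporter gene Abca1, by 0.58 ± 0.06, and Lpin1 fell by 1.27 ± 0.13. Scaled by library totals alone, 5 of the lipid handling genes rose and 5 fell. Of 19 cholesterol synthesis genes none rose and 4 fell (21.1%, near the 18.0% of all genes). With library totals alone none of them rose and 8 fell, and with the split between libraries as a term 3 rose and 7 fell.

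Circadian genes and alpha-arrestins were groups in which falls outnumbered rises. Of 18 clock genes 8 fell and 4 rose. Usp2 fell from 10.2, 10.8 and 11.6 CPM to 2.18, 2.18 and 1.74 CPM, Dbp from 33.9, 36.2 and 32.9 CPM to 10.7, 12.8 and 13.7 CPM, and Tef and Per3 by 0.79 ± 0.08 and 0.94 ± 0.12. Nfil3, which encodes a repressor that binds the same sites as DBP and TEF, rose from 27.3, 28.7 and 34.5 CPM to 171, 121 and 123 CPM. In Usp2, Dbp and Nfil3 the groups were separate. Of 5 alpha-arrestin genes 4 fell, with a median of -1.54. Txnip, an inhibitor of glucose uptake, fell from 183, 212 and 199.5 CPM to 54.2, 73 and 71.9 CPM, and Arrdc3 from 37.3, 50.4 and 45.8 CPM to 9.35, 13 and 13.1 CPM, while Arrdc4 did not pass (0.07 ± 0.09).

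Receptors for adenosine rose while some receptors for nucleotides fell. Adora2b rose from 28.4, 24.4 and 27.2 CPM to 130.3, 113 and 104 CPM and Adora2a from 20.2, 12.8 and 15 CPM to 40.8, 52.7 and 57.8 CPM. Both encode adenosine receptors that raise cyclic AMP. The nucleotide receptor gene P2ry2 rose by 1.65 ± 0.10, and P2ry13 and P2rx7 fell by 0.93 ± 0.17 and 0.54 ± 0.06. Of all 14 purinergic genes 5 rose and 4 fell. Among 16 orphan and metabolite receptors 5 rose, Gpr35 from 9.96, 5.71 and 6.29 CPM to 24.7, 29.9 and 26.6 CPM, and 3 fell, Gpr65, an acid sensor, by 0.93 ± 0.09. Under library totals alone 4 of these receptors rose and 7 fell.

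Among stress and housekeeping genes, few changes reached 2-fold outside the heat shock, integrated stress, ribosomal protein and solute carrier lists. Of 16 heat shock genes 9 rose, 3 of them at least 2-fold, and none fell. Dnajb4 rose from 34.5, 35.8 and 29.3 CPM to 158, 169 and 162 CPM. Of 21 unfolded protein and integrated stress genes 10 rose, Ddit4 by 1.96 ± 0.15 and Atf4 by 0.42 ± 0.06, and 2 fell, including Herpud1, an ER stress gene, by 1.07 ± 0.11. With library totals alone 5 of these stress genes rose and 4 fell. Of 31 cell cycle genes 24 did not pass, and Mki67 rose by 0.56 ± 0.09 and Ccnd2 by 1.22 ± 0.20. Of 20 actin and focal adhesion genes 11 rose, Tpm4 by 0.82 ± 0.08 and Actg1 by 0.62 ± 0.06, and none fell. With library totals alone 6 of the heat shock genes rose and 1 fell, and 6 of the actin genes rose and 2 fell. Of 28 lysosomal genes 8 rose and 2 fell, one of them Tfeb, which encodes a regulator of lysosomal genes, by 1.10 ± 0.11. Scaled by library totals alone, 2 of the lysosomal genes rose and 8 fell. Of 74 nuclear genes of oxidative phosphorylation 15 rose (20.3%) and of 86 cytosolic ribosomal protein genes 15 rose (17.4%) and 2 fell, shares of rises near the 18.0% of all genes. Under library totals alone 1 and 3 genes of these lists rose and 11 and 7 fell (medians of -0.10 and -0.08 in place of 0.15 and 0.17). At least 2-fold, 2 of the 86 ribosomal protein genes rose and 2 fell. With the split between libraries as a term 60 of these 86 genes rose. Of 24 ribosome biogenesis genes 7 rose and 4 fell, and with library totals alone 3 rose and 7 fell. Of 13 mitochondrially encoded genes 4 rose and none fell, and with library totals alone 1 rose and 1 fell. Of 206 solute carriers 49 rose (23.8%) and 29 fell (14.1%), beside 18.0% of all genes in each direction, and with library totals alone 33 rose and 83 fell. At least 2-fold, 17 solute carriers rose and 2 fell.

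Histone-modifying enzymes and zinc finger genes included many falls. Kdm6b, a histone demethylase gene, rose from 171, 135 and 143 CPM to 417, 544 and 561 CPM and Kdm7a by 1.01 ± 0.08, but 8 of the 21 enzymes fell, among them the acetyltransferase gene Ep300, from 164, 154 and 168 CPM to 96.8, 96 and 95 CPM. Of 282 numbered zinc finger genes, most of which encode DNA-binding proteins, 124 fell (44.0%, beside 18.0% of all genes) and 21 rose, with a median of -0.42. The falls outnumbered rises under each scaling, with 191 falls and 14 rises with library totals alone.

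**Figure D4:**
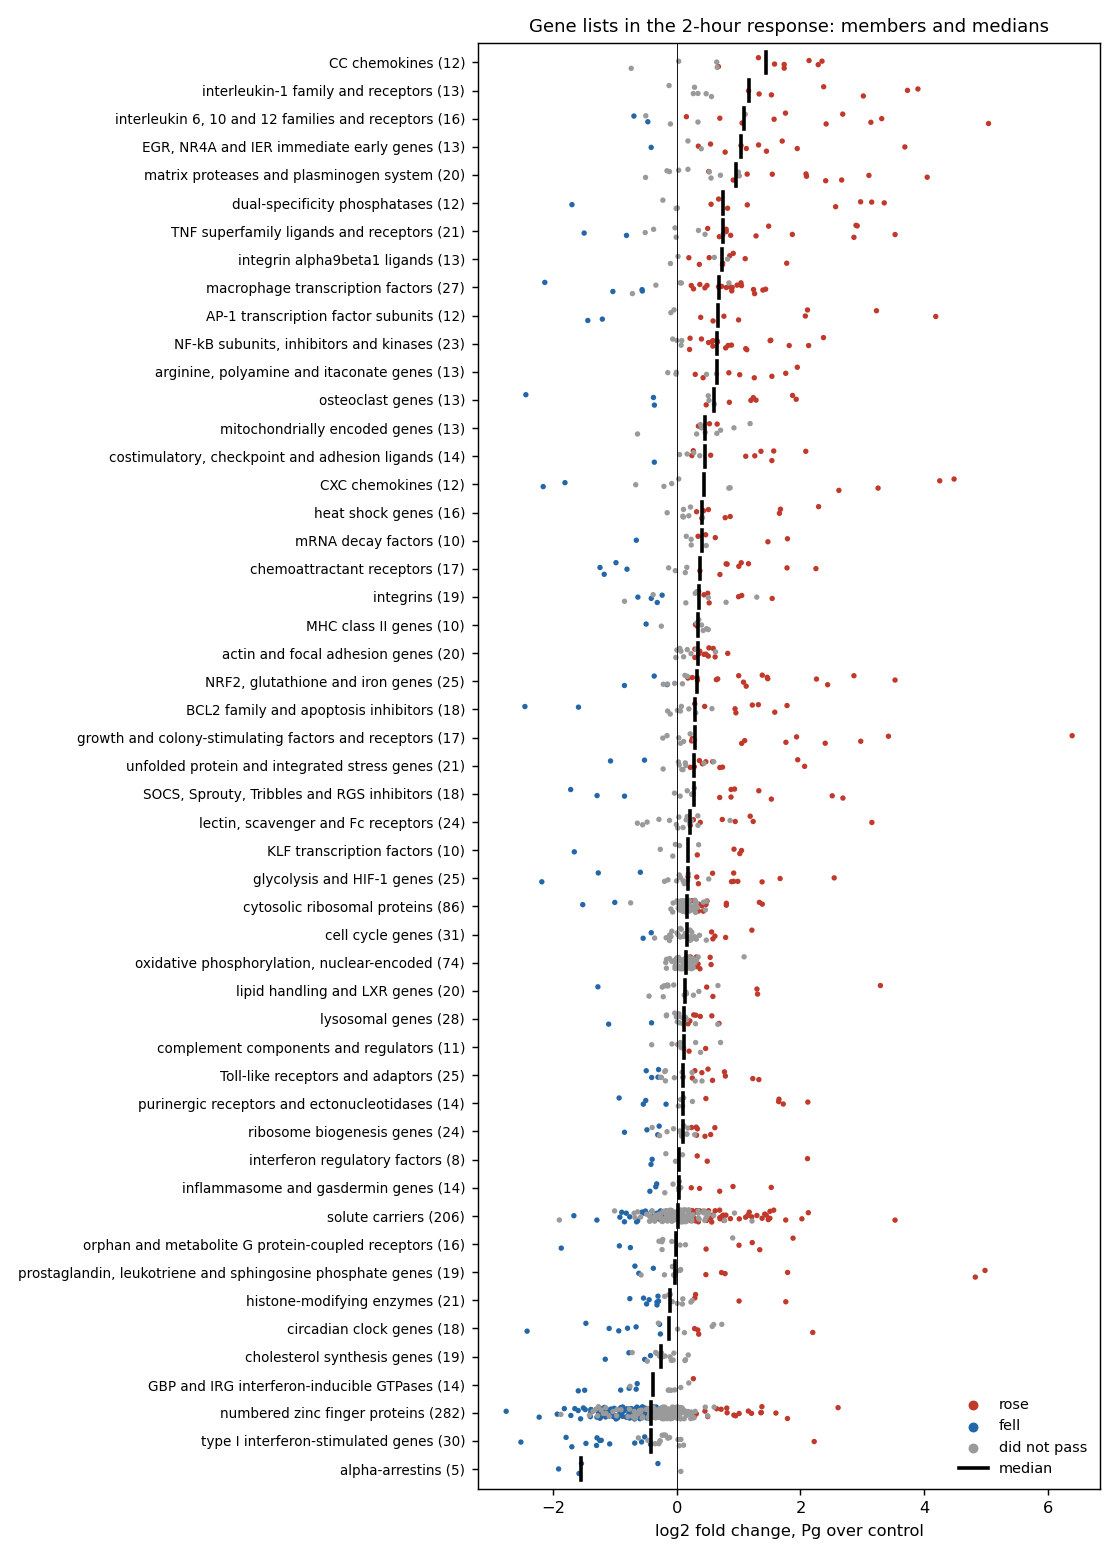
Log2 fold changes of Pg over control (horizontal axis) for the tested members of each gene list, with the number of members in brackets, ordered by the list's median (black bar). Red members rose, blue members fell and grey members did not pass. The CC chemokines stand at the top with a median of 1.45 and the alpha-arrestins at the bottom with -1.54.

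Some genes were all but silent in the controls and detected under Pg. The rule for these was under 0.5 CPM in every control library and a mean of at least 2 CPM under Pg. Beside Csf3, they included Sele, an adhesion molecule known from endothelium, from 0.334, 0.233 and 0.498 CPM to 2.81, 2.75 and 3.01 CPM, and the lymphocyte growth factor gene Il7, from 0.334, 0.408 and 0.311 CPM to 3.09, 2.75 and 1.61 CPM. Summed markers of endothelial cells lay between 93.0 and 109 CPM in the controls and between 97.6 and 106 CPM under Pg, mostly from Vwf. Gm8818, a predicted gene, rose from 0, 0.233 and 0.124 CPM to 7.52, 5.28 and 4.02 CPM, and Ptgs2os2, an antisense RNA of Ptgs2, from 0.223, 0.408 and 0.311 CPM to 3.02, 2.04 and 2.21 CPM. The strand setting of the counting is not given in the sources used here, so reads of Ptgs2 and of its antisense partner cannot be told apart. Fam83g, Fam83c, Gm37498, Gm18445 and Gm32568 were the others with the highest levels under Pg.

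Non-coding genes took part in the response. Of 332 lincRNA genes 12.7% rose at least 2-fold, beside 4.42% of 11816 protein-coding genes, and 5.12% fell at least 2-fold, beside 2.94%. Without the fold limit lincRNA genes were called less often, 16.0% as rises and 11.7% as falls, beside 18.9% and 19.7% of protein-coding genes. The 2-fold shares also vary with level. Of protein-coding genes in the lowest of 5 classes by level, 6.47% rose and 7.82% fell at least 2-fold. LincRNA genes were not compared with protein-coding genes of like level. Of 580 processed pseudogenes, 4.83% rose and 1.03% fell at least 2-fold. The host genes of microRNAs Mir155hg and Mir22hg rose from 19.9, 15.3 and 16.3 CPM to 76.7, 76.5 and 86.7 CPM and from 74.3, 70.7 and 66.4 CPM to 218, 199 and 199.5 CPM. Both were picked after their values were seen.

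Some neighbouring genes changed in the same direction by at least 2-fold. Over all tested protein-coding genes in their order on the chromosomes there were 14 runs of at least 3 such neighbours. Non-coding genes between them were skipped, and the gap between neighbours was limited. Of the protein-coding genes 4.42% rose and 2.94% fell at least 2-fold. How many runs these shares alone would give was not tested. One was the chemokine run Cxcl3, Cxcl1 and Cxcl2 on chromosome 5, from position 90786103 to 90905938. On chromosome 1 Il1r2, Il1r1 and Il1rl2 rose between 40074079 and 40367562. The longest run held 6 rises elsewhere on chromosome 1, Ifi211, Ifi203, Ifi202b, Ifi205, Olfr433 and Olfr432. Ifi203 went from a mean of 256.7 CPM to 549.7 CPM and Ifi205 from 21.08 CPM to 82.37 CPM. Ifi202b (0.4534 to 2.336 CPM), Olfr433 (0.4861 to 1.448 CPM) and Olfr432 (0.05872 to 0.5093 CPM) rest on few reads, and so does the length of this run. The Ifi genes of the run, named after interferon, were not in the type I interferon list above, and they rose while many of that list fell. A run of 5 genes rose on chromosome 6 between 16833373 and 17573980, Tfec, Tes, Cav2, Cav1 and Met, and Cav1, which encodes caveolin 1, went from 4.79, 3.9 and 3.17 CPM to 26, 26.8 and 29.5 CPM. On chromosome 9 the receptor genes Xcr1, Ccr1 and Ccr3 rose, and on chromosome 17 the ligand genes Tnfsf9 and Tnfsf14. The runs of falls included 5 Ifit genes on chromosome 19, from 34550694 to 34650009, and 4 zinc finger genes on chromosome 13, Zfp458, Zfp595, Zfp953 and Zfp456. These positions are in mm10. Members of the Ifit and Bcl2a1 runs have similar sequences and may share reads.

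The response of cHet cells was compared with that of cKO cells by the test of the difference itself. Of the 13800 genes, 99 (0.717%) differed in their response, and 72 of these were also changed in cHet. DESeq2 called 259. The genes named here are the 10 with the smallest p among those changed in cHet. Of these, 5 rose less in cHet: the phosphatase gene Dusp1 by 2.57 in cHet and 3.69 in cKO (difference 1.12 ± 0.11, adjusted p = 0.00028), Dusp5 by 2.97 and 3.96, Zfp36 by 1.79 and 2.55, Junb by 0.76 and 1.36, and Tnfsf9 by 2.86 and 3.66. Tent5a, which encodes a poly(A) polymerase, had log2 fold changes of -1.22 in cHet and -2.23 in cKO, and the ubiquitin ligase gene Dtx3l -0.46 and -1.28, so that both fell less in cHet. Snx30, Klhl21 and Flcn, which encodes folliculin, fell more in cHet, at -0.83, -0.84 and -0.84, beside -0.21, 0.09 and -0.31 in cKO. The count of 99 changed with single libraries: it was 25 without cKO control 3, 39 without cKO Pg 2, 44 without cKO Pg 1 and 210 without cKO Pg 3, and it was 40 without cHet control 3, 53 without cHet Pg 2 and 61 without cHet control 2.

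**Figure D5:**
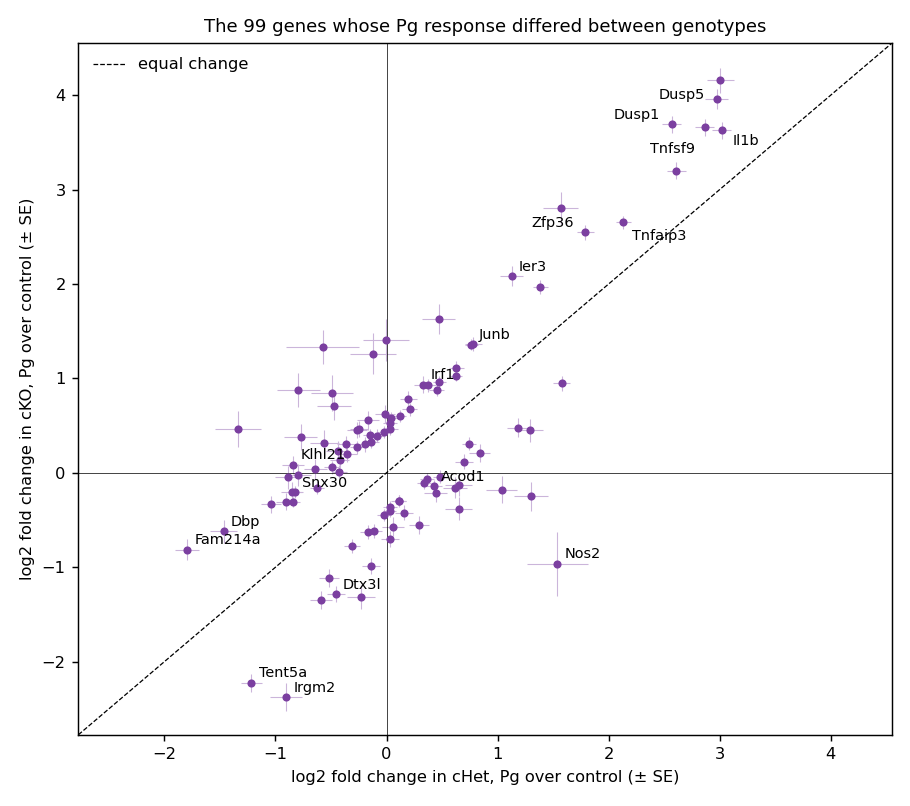
The 99 genes whose response differed between genotypes, with the log2 fold change of Pg over control in cHet (horizontal axis) and in cKO (vertical axis), and bars of 1 SE. On the dashed line both changes would be equal, and Dusp1, Dusp5, Zfp36 and Junb lie above it, with a larger rise in cKO.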

How the data were processed

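Per the labels' protocols, polyadenylated RNA was sequenced. Per the submitters' processing notes, the authors used fastp, HISAT2 2.0.5, mm10 and featureCounts 1.5.0-p3 to make the deposited table of raw counts per gene. Not given in the sources used here were the annotation release, the strand setting and how multi-mapping reads were treated. Genes were filtered with edgeR's filterByExpr, scaled by TMM and tested with edgeR 4.0.16 (quasi-likelihood test, Benjamini-Hochberg adjustment over 13800 genes, threshold 0.05) in R 4.3.3. All 12 libraries entered 1 fit with 4 groups, and the difference between genotypes was its interaction term. SEs accompany log2 fold changes. DESeq2 1.42.0 served as an alternative. On simulated counts of the cHet comparison over 13800 genes, 76% of 2-fold and 94% of 4-fold changes were recovered. The changes were placed only in genes with a control mean above 1 CPM, in 100 genes at each fold, with as many rises as falls. In the data 36.1% of genes were called, so the simulation cannot show how the scaling acts on the calls. The simulated counts held no split between libraries, so recovery in the real libraries may be lower. No pair of libraries of a group agreed within sampling noise. Genes and lists were chosen with earlier results of these data known. Named genes were the largest changes without overlap, the largest gains and losses in CPM, the 10 clearest differences between genotypes and the list members with the smallest p. Further members were named after their values were seen. Promoters were taken from RefSeq (GRCm38.p6), and those shown were chosen after the values were seen.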

Additional observations from a re-analysis of the deposited data

Results flagged for a closer look

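These genes, among those named above, had a response to Pg that differed between cHet and cKO by the interaction test (edgeR, adjusted over all 13800 genes). Values are the log2 fold change in cKO minus that in cHet. The response was larger in cKO for Dusp1 (1.12), Dusp5 (0.99), Tnfsf9 (0.79), Zfp36 (0.76), Il1b (0.61), Junb (0.60), Irf1 (0.60) and Tnfaip3 (0.52). Genes that fell less in cKO, or not at all, were Fam214a (0.98), Klhl21 (0.93), Dbp (0.85), Snx30 (0.62) and Flcn (0.53). Tent5a (-1.01), Dtx3l (-0.82) and Irgm2 (-1.47) fell further in cKO. Nos2 (-2.50) and Acod1 (-0.57) rose in cHet and had log2 fold changes of -0.96 and -0.14 in cKO. Some of these rest on single libraries. The difference for Nos2 did not pass without cKO control 3, cKO Pg 1 or cKO Pg 2 (adjusted p = 0.052, 0.051 and 0.055). That for Il1b did not pass without cHet control 2, cHet control 3, cHet Pg 3, cKO control 3 or cKO Pg 2 (adjusted p = 0.058 to 0.087), and that for Irf1 without cHet control 1, cHet control 3, cHet Pg 2, cKO control 2, cKO control 3, cKO Pg 1 or cKO Pg 2 (0.054 to 0.12). For Dbp it passed only in the fits without cHet control 1, cHet Pg 3, cKO control 2 or cKO Pg 3 and was otherwise at 0.051 to 0.11 when 1 library was left out. The difference for Tnfaip3 did not pass without cHet control 3, cKO control 3 or cKO Pg 2 (adjusted p = 0.054, 0.054 and 0.052).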

How the results depend on the processing

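The count of 4980 genes lay between 4097 (without control 3) and 4683 (without control 1) when 1 cHet library was left out. DESeq2 gave 4875, no filter 4977 and the 6 cHet libraries alone 4748. With library totals only, 1288 genes rose, 5438 fell and 918 fell at least 2-fold. The 99 differences between genotypes became 389 with no filter and 259 with DESeq2, and ranged from 25 to 210 without 1 library. Of alternatives chosen after seeing the data, leaving out both cHet replicates numbered 1 gave 200 such differences. Replicate numbers did not pair the libraries: same-numbered control and Pg libraries had correlations of -0.468, -0.216 and -0.205. With the replicate block 3434 genes passed, 1627 of them falls, and 57 differed between genotypes. Lyz2, Rela, Ikbkb and Cyld changed sign with library totals only, at -0.24, -0.04, -0.16 and -0.24. Of 219 called genes named in the text, 202 kept their call under each alternative run. The causes were not tested.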
